A study of Mus musculus with 32 samples.

Results

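The hippocampi of old mice lacking the inflammasome sensor NLRP3 (genotype CIAS -/-, CIAS being an older name of NLRP3) were set directly against those of old mice lacking the adaptor ASC (genotype ASC -/-), without wild type arrays. The comparison holds 12 of the 32 bead arrays of the study, 6 arrays labelled CIAS -/- old and 6 labelled ASC -/- old, and its features are probes with a detection p-value under 0.05 on at least 3 of the 12 arrays. Both groups are knockouts on the C57BL/6J background, fed chow from weaning, so a difference between them says nothing of how either stands to wild type. The CIAS -/- old mice were 23 months old by every label. The ASC -/- old mice were 23 months old by their titles, whereas the characteristics give 23 months for replicate 1 and 21 months for replicates 2 to 6. Genotype and labelled age can therefore be told apart only through 1 array. The labels give neither how the lines were made nor whether arrays stand for separate animals or pools, so a p-value here is read against the scatter of the arrays alone, part of which may be technical. The other groups were CIAS -/- young (3 arrays) and ASC -/- young (3), CASP11 -/- young (4), wild type old (6) and wild type young (4), the young mice being 1 month old.

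NLRP3 is a cytosolic sensor of cell stress and tissue damage, expressed in the brain mainly by microglia. Once active it recruits ASC, encoded by Pycard, which clusters and brings in caspase-1, and caspase-1 then matures interleukin-1β and interleukin-18 and opens the pore-forming protein gasdermin D. ASC also serves sensors other than NLRP3, among them AIM2, so the lines lack different parts of a partly shared pathway. The comparison addresses whether loss of the sensor and loss of the adaptor leave the old hippocampus with the same transcripts.

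The number of probes detected per array ran from 13172 to 13900, and the median probe intensity before normalization from 58.9 to 79.0. Across the 10767 tested features, which are not independent replicates, arrays of 1 group correlated at a median r of 0.992 and arrays of different groups also at 0.992. Hippocampal markers were detected in both groups: the dentate gyrus marker C1ql2 averaged 11.9 ± 0.160 in CIAS -/- old and 12.0 ± 0.153 in ASC -/- old on the log2 signal scale, and the CA1 marker Fibcd1 11.8 ± 0.134 and 11.8 ± 0.0944 (SD, n = 6 each). The first principal component held 29.1% of the variance and was led by choroid plexus genes (Wfdc2, Ecrg4, Aqp1, Cldn2). The mean log2 signal of 14 choroid plexus genes ran from 6.32 to 8.78 over the CIAS -/- old arrays, against 6.70 to 9.20 over the ASC -/- old arrays. CIAS -/- old replicate 5 stood apart in Xist, at 7.76 against 4.89 to 5.21 on the other CIAS -/- old arrays and 4.93 to 5.37 on the ASC -/- old arrays, while the Y-linked gene Eif2s3y lay between 9.14 and 10.0 on all 12 arrays.

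The old knockouts differed in few transcripts. Of 10767 features, 8 passed the test (limma with Benjamini-Hochberg adjusted p under 0.05), which is 0.0743% of those tested. The 3 that were higher in CIAS -/- old (0.0279%) were Cox6a2, Khdrbs3 and Tmem254a. The 5 that were lower (0.0464%) were Gdpd3, Erdr1, Grm8 and 2 probes with no gene name in the annotation used, ILMN_1227722 and ILMN_2693246. At an unadjusted p under 0.05 there were 685 features, or 6.36%. The values of the groups did not overlap for 50 features (0.464%), 20 higher and 30 lower in CIAS -/- old, among them all 8 that passed. Each of the 6 named genes is represented by a single probe, so no second probe bears on its difference. In bulk tissue, fewer cells of a type and less RNA per cell cannot be told apart.

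Gdpd3, the gene with the smallest p, encodes a lysophospholipase D that releases lysophosphatidic acid, a signalling lipid. It lies on the same chromosome as Pycard, and the promoters of both genes are shown because that position recurs in the results on neighbouring genes. The sequences are those of RefSeq on GRCm38.p6, 250 bases before to 50 after the annotated start, and capitals mark matches on either strand to the E-box (letters CANNTG), the GC box (letters GGGCGG) or the TATA box (letters TATAAA).
Gdpd3, chr7:126766164-126766463, + strand: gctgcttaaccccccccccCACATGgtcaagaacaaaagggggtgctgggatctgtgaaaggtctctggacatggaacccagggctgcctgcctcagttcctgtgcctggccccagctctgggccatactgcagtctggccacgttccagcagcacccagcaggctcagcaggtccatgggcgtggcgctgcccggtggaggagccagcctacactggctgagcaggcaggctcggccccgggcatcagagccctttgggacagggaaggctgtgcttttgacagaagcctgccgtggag
Pycard, chr7:127993818-127994117, - strand: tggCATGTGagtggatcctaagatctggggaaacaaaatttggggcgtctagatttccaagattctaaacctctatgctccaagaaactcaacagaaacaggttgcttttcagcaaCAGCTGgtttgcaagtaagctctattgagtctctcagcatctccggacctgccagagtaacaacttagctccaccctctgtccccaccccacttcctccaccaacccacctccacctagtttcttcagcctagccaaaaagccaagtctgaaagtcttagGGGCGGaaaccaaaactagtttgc
The Gdpd3 window held 1 E-box, 0 GC boxes and 0 TATA boxes, and its GC content was 64.3%. The Pycard window held 2 E-boxes, 1 GC box and 0 TATA boxes, with a GC content of 48%. Of 32851 mouse promoters of this length, 72.31% held CANNTG, 35.66% GGGCGG and 13.62% TATAAA, so these matches are common.

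Gdpd3 log2 signal spanned 4.99 to 5.37 in CIAS -/- old arrays, with a median of 5.24, against 7.80 to 8.41 in ASC -/- old arrays, with a median of 7.99. Every CIAS -/- old array lay below every ASC -/- old array, with a wide gap between the groups. The probe was detected on 4 of 6 CIAS -/- old arrays and on 6 of 6 ASC -/- old arrays, so the lower group lay near background. The group means were 5.20 ± 0.168 and 8.04 ± 0.209 (SD, n = 6 each). The log2 difference was -2.84 (SE 0.101, limma adjusted p = 1.65e-09). Gdpd3 passed in every alternative setting tried and with any 1 of the 12 arrays left out. The size depended on how low signals were treated: the log2 difference was -2.07 with an offset of 50, -2.15 without background correction and -3.56 on the deposited normalized values.

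Erdr1, named for a secreted erythroid differentiation regulator, was the other transcript much lower in CIAS -/- old than in ASC -/- old. Its signal spanned 4.42 to 4.52 in CIAS -/- old arrays, with a median of 4.46, against 6.02 to 7.48 in ASC -/- old arrays, with a median of 6.79. The probe was not detected on any of the 6 CIAS -/- old arrays and was detected on all 6 ASC -/- old arrays. The measured means were 4.47 ± 0.0398 and 6.79 ± 0.565 (SD, n = 6 each), and their difference passed (limma adjusted p = 6.69e-05). The probe met the detection filter only through the ASC -/- old arrays, where it is high. The small SD in CIAS -/- old is that of background signal, so this p does not measure the spread of the transcript there. With the CIAS -/- old level bounded by the lowest signals of detected probes, Erdr1 was at least 3.40-fold lower in CIAS -/- old, a bound that was not itself tested. That bound holds for this normalization: the measured log2 difference was -2.32, and it was -1.38 with an offset of 50 and -1.68 without background correction, both smaller than the bound. The call was lost in the fit of all 7 groups, at a log2 difference of -2.32 (adjusted p = 0.108).

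Cox6a2 was higher in CIAS -/- old than in ASC -/- old. It encodes the heart and skeletal muscle isoform of subunit 6A of cytochrome c oxidase, the last complex of the respiratory chain, and in the brain it has been described in parvalbumin interneurons of the mouse. Its log2 signal spanned 8.18 to 8.67 in CIAS -/- old arrays, with a median of 8.35, and 7.12 to 7.47 in ASC -/- old arrays, with a median of 7.33. The groups did not overlap, and the probe was detected on all 12 arrays. The means were 8.40 ± 0.188 and 7.32 ± 0.144 (SD, n = 6 each), a log2 difference of 1.08 (SE 0.0911, adjusted p = 6.69e-05). Cox6a1, the isoform of most other tissues, averaged 12.2 ± 0.0969 in CIAS -/- old and 12.1 ± 0.179 in ASC -/- old and did not pass (log2 difference 0.15, adjusted p = 0.762).

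Khdrbs3 was higher in CIAS -/- old by a like amount. It encodes an RNA-binding protein of the STAR family that regulates alternative splicing, including that of neurexins, in neurons. Its log2 signal spanned 8.46 to 9.19 in CIAS -/- old arrays, with a median of 8.85, and 7.70 to 8.01 in ASC -/- old arrays, with a median of 7.79. The groups did not overlap, and the means of 8.86 ± 0.255 and 7.83 ± 0.135 (SD, n = 6 each) differed by 1.03 (SE 0.108, adjusted p = 0.00053).

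Grm8 was modestly lower and Tmem254a higher in CIAS -/- old than in ASC -/- old. Grm8 encodes metabotropic glutamate receptor 8, a presynaptic receptor that dampens transmitter release. It spanned 5.87 to 6.13 in CIAS -/- old arrays, with a median of 6.00, and 6.34 to 6.76 in ASC -/- old arrays, with a median of 6.54 (log2 difference -0.56, SE 0.0714, adjusted p = 0.00401). Tmem254a, a predicted transmembrane protein, spanned 7.73 to 8.49 in CIAS -/- old arrays, with a median of 8.06, and 7.09 to 7.45 in ASC -/- old arrays, with a median of 7.17 (0.85, SE 0.111, adjusted p = 0.00469). Neither gene overlapped between the groups. Tmem254a also lost its call in the fit of all 7 groups (adjusted p = 0.323). The unnamed probes had the smallest margins: ILMN_1227722 averaged 6.61 ± 0.147 in CIAS -/- old and 7.13 ± 0.115 in ASC -/- old (log2 difference -0.51, adjusted p = 0.0148), and ILMN_2693246 averaged 6.36 ± 0.169 and 6.85 ± 0.107 (-0.49, adjusted p = 0.0332). With 1 array left out, ILMN_1227722 passed in 9 of 12 cases and ILMN_2693246 in 2 of 12. Both lost their calls in the fit of all 7 groups (adjusted p = 0.167 and 0.1005) and in that of 4 groups (0.200 and 0.328).

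With the age of the characteristics as a covariate, which leaves ASC -/- old replicate 1 as the only array that separates age from genotype, Gdpd3 and Erdr1 kept their calls. Cox6a2 lost its call there (log2 difference 0.97, adjusted p = 0.319), and Khdrbs3 (0.89), Grm8 (-0.58), Tmem254a (0.85), ILMN_1227722 (-0.46) and ILMN_2693246 (-0.46) did too, each at adjusted p = 1.00, with sizes close to those above.

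**Figure D1:**
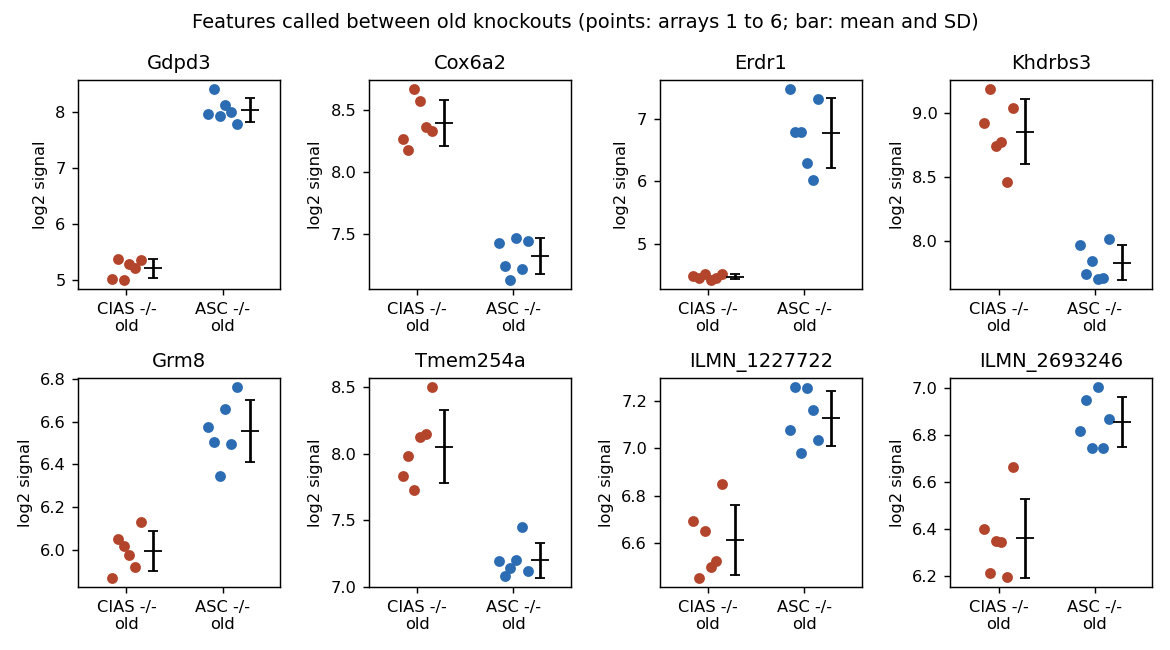
Log2 signal of the 8 features that passed the test on each array, CIAS -/- old on the left and ASC -/- old on the right of each panel (points are arrays, the bar is the mean with its SD, n = 6 each). In all 8 panels the groups do not overlap, and the gap is widest for Gdpd3, at 4.99 to 5.37 against 7.80 to 8.41.

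**Figure D2:**
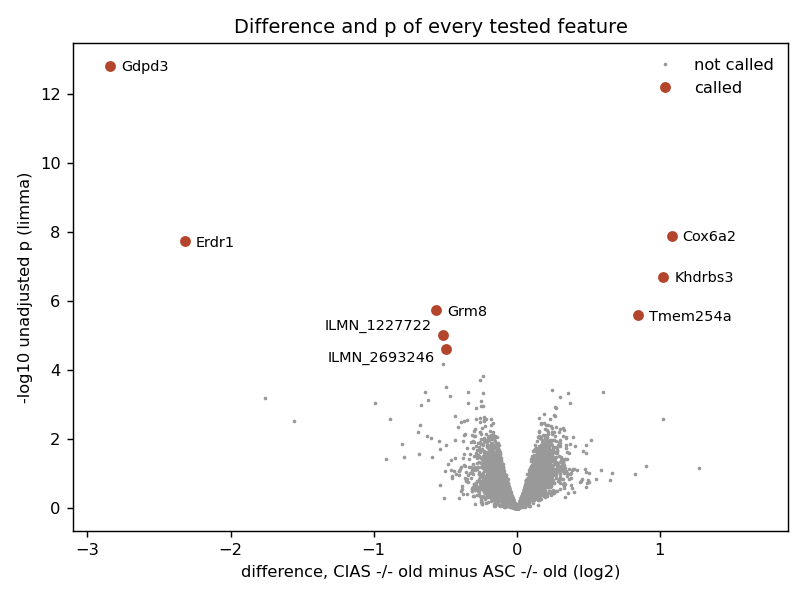
Log2 difference (CIAS -/- old minus ASC -/- old) of each of the 10767 tested features on the x axis and the negative log10 of its unadjusted limma p on the y axis, with the 8 features that passed coloured and named. Gdpd3 at -2.84 stands farthest from the cloud, and most features lie close to 0.

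The next features in order of p did not pass the test. Stac, a gene of an adaptor protein of calcium channels, was nearest, with 5.81 ± 0.164 in CIAS -/- old and 6.33 ± 0.172 in ASC -/- old (log2 difference -0.51, adjusted p = 0.0806). Rap2b, a small GTPase, had a difference of -0.24, Rad18, a DNA damage ubiquitin ligase, -0.26, and Usp45, a deubiquitinase, -0.49. On the other side Paics, an enzyme of purine synthesis, had 0.25, Phpt1, a protein histidine phosphatase, 0.61, Pla2g6, a calcium-independent phospholipase, 0.36, Trp53i11 0.30, Prr36 0.37 and Kdm8 0.27. Their adjusted p-values ran from 0.154 for Rap2b to 0.418 for Kdm8. Some passed under an alternative: Rap2b on the deposited values (adjusted p = 0.0396), without the filter (0.0183) and with array weights (0.0435), and Rad18 on the deposited values (0.0322). Stac, Paics and Usp45 passed with array weights (0.0435 each). Stac also passed without CIAS -/- old replicate 6 (0.0202), and Phpt1 without ASC -/- old replicate 1 (0.0147).

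Size alone gave few further candidates. The point difference exceeded 1.5-fold for 29 features, of which 5 passed, and 2-fold for 8, of which 4 passed. The 4 others were spread widely within a group. Zbtb7a, a transcriptional repressor, spanned 4.58 to 7.20 in CIAS -/- old arrays against 7.40 to 8.27 in ASC -/- old arrays, without overlap, at a difference of -1.76 (adjusted p = 0.324); its SD was 1.11 in CIAS -/- old and 0.294 in ASC -/- old, and it passed in the fit of all 7 groups (adjusted p = 0.0053). Thsd4 differed by -1.56, the pituitary hormone gene Prl by 1.27 and the X-linked gene Xlr4a by 1.03, and none of these 3 passed.

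For most features the data bounded the difference in log2 signal closely. Near background the size of a difference depends on the offset and background correction, as for Gdpd3 and Erdr1. An interval there bounds the signal and not the fold of the transcript, here and in the gene lists below. The median standard error was 0.0783 log2 units. The 95% confidence interval, unadjusted for the number of features, lay within 1.5-fold in both directions for 10370 features (96.3%) and within 2-fold for 10688 (99.3%).

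The genes knocked out in these lines could not be used as a check. Both Nlrp3 probes and the Pycard probe were detected on 0 of the 12 arrays, and on none of the 32. Nlrp3 averaged 4.42 ± 0.0541 in CIAS -/- old and 4.42 ± 0.0347 in ASC -/- old at the probe with the higher mean, and Pycard 4.67 ± 0.0969 and 4.64 ± 0.0674 (log2 signal, SD, n = 6 each). The sources used here describe neither the knockout alleles nor where these probes lie relative to them.

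No measured gene of the inflammasome and interleukin-1 pathway passed the test. Of 32 listed genes on the array 14 were measured, and 0 passed, against 0.0743% over all features. Their median log2 difference was -0.063, against -0.0015 over all features. Of the 14, 2 had an unadjusted limma p under 0.05, both lower in CIAS -/- old, against 6.36% of all features. So small a count does not set the list apart. The 14 intervals all lay within 1.5-fold, from -0.37 to 0.46. Casp1, the caspase that ASC recruits, spanned 8.00 to 8.63 in CIAS -/- old arrays, with a median of 8.36, and 7.55 to 8.46 in ASC -/- old arrays, with a median of 8.28 (difference 0.16, 95% interval -0.13 to 0.46, adjusted p = 0.816). Casp4, which encodes the caspase-11 of the non-canonical pathway, averaged 5.34 ± 0.113 in CIAS -/- old and 5.44 ± 0.0746 in ASC -/- old at its 1 detected probe of 3 (difference -0.096, adjusted p = 0.779). Both genes overlapped between the groups.

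Substrates of caspase-1 and genes of interleukin-1 family signalling also overlapped between the groups. Il18, a cytokine that caspase-1 matures, averaged 8.69 ± 0.0640 in CIAS -/- old and 8.74 ± 0.161 in ASC -/- old (difference -0.042, interval -0.20 to 0.11). Il33, an alarmin of the same family, averaged 9.42 ± 0.327 and 9.51 ± 0.145 (-0.084, interval -0.36 to 0.20). Gsdmd, which encodes gasdermin D, averaged 6.08 ± 0.0956 and 6.03 ± 0.222 (0.052, interval -0.15 to 0.25). The genes with the smallest p of the list were Traf6, a ubiquitin ligase downstream of the interleukin-1 receptor, at 8.49 ± 0.0873 and 8.65 ± 0.0976 (-0.16), and Panx1, a membrane channel that releases ATP, at 7.72 ± 0.137 and 7.91 ± 0.163 (-0.19). Both had an adjusted p of 0.761. The receptor chain Il1rap, the adaptor Myd88 and the kinase Irak1 differed by -0.039, 0.014 and -0.13.

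No other list of genes held a feature that passed. Over 37 lists, 572 genes were measured and 0 passed, against 0.0743% of all features. At so small a share, 0 passing does not set a list apart. An unadjusted p under 0.05 was found for 31 (5.42%), against 6.36% of all features. The 95% interval lay within 1.5-fold for 512 of the 572.

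No interferon, antigen presentation, complement or NF-kB gene passed, against 0.0743% of all features. The medians of these 4 lists lay between 0.021 and 0.067. Of 22 interferon-stimulated genes 17 had a positive difference, with a median of 0.067, and 20 intervals lay within 1.5-fold. Within that list Ifi27l2a averaged 6.68 ± 0.420 in CIAS -/- old and 6.28 ± 0.411 in ASC -/- old, and Isg15, a ubiquitin-like modifier, 5.67 ± 0.112 and 5.49 ± 0.101 (differences 0.40 and 0.17, adjusted p = 0.761 for both). The 15 measured genes of antigen presentation had a median of 0.061 and 11 intervals within 1.5-fold, with the class II gene H2-Eb1 at 0.32 (adjusted p = 0.761). The 9 measured complement genes had a median of 0.045 and only 6 intervals within 1.5-fold. Of the 9, 7 had a positive difference, with the C1 inhibitor gene Serping1 at 0.37 (adjusted p = 0.776) and C1qc at 0.16. The others were Cr1l, at -0.12, and Cd59a, at -0.24. Cr1l alone of the 9 had an unadjusted limma p under 0.05, against 6.36% of all features. For 14 measured NF-kB targets and cytokines the median was 0.021, and all 14 intervals lay within 1.5-fold.

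Glial lists were as close. The 21 measured homeostatic microglia genes had a median of -0.032. Of these 21, 9 had a positive difference, among them Sparc, which had the smallest p of the list (0.37, limma adjusted p = 0.761). Cx3cr1, the fractalkine receptor of microglia, averaged 8.66 ± 0.478 in CIAS -/- old and 9.03 ± 0.140 in ASC -/- old (-0.37, adjusted p = 0.761). Cx3cr1 was 7.76 on CIAS -/- old replicate 6, against 8.67 to 9.13 on the other CIAS -/- old arrays. The 22 genes of activated or disease-associated microglia had a median of 0.014, and 21 of their intervals lay within 1.5-fold, Apoe at 0.15 and B2m at 0.042. Reactive astrocyte genes (18 measured) had a median of 0.048, with Serpina3n at -0.20 and the S100 protein gene S100a10 at 0.17. Myelin genes (21 measured) had a median of -0.029 and newly formed oligodendrocyte genes (10 measured) -0.044, with Enpp6, an early marker of oligodendrocyte differentiation, at -0.46 (adjusted p = 0.762).

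No neuronal or metabolic list held a gene that passed, against 0.0743% of all features. All 29 measured oxidative phosphorylation genes had intervals within 1.5-fold, with a median of -0.015. Cox6a2 is not a member of that list. The ATP synthase genes Atp5o and Atp5e differed by -0.16 and 0.20 (adjusted p = 0.761 for both). All 22 measured ribosomal protein genes lay within 1.5-fold too, with a median of -0.021. Synaptic plasticity genes (19 measured) had a median of 0.015 and 17 intervals within 1.5-fold, with the AMPA receptor gene Gria3 at -0.21 and the neurotrophin gene Bdnf at -0.17. Neurogenesis genes (19 measured) had a median of -0.011, and all their intervals lay within 1.5-fold.

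The largest list medians belonged to markers of the meninges and of blood. Meningeal and fibroblast markers (17 measured) had a median of 0.23, and 13 of the 17 had a positive difference. Ogn was at 0.51 (interval -0.10 to 1.11), Fmod at 0.49 and Islr, in the other direction, at -0.23. Of these 17 markers, Fmod and Islr alone had an unadjusted limma p under 0.05, against 6.36% of all features. The mean level of the list ran from 7.04 to 8.25 over CIAS -/- old arrays and from 7.20 to 8.07 over ASC -/- old arrays. Blood and peripheral immune markers (6 measured) had a median of 0.17, led by the neutrophil genes S100a9 (0.90) and S100a8 (0.83), whose SD in CIAS -/- old was 1.25 and 1.29. Their mean level was 7.95 in CIAS -/- old replicate 3, against 6.57 to 6.96 on the 5 other CIAS -/- old arrays and 6.27 to 6.93 on the ASC -/- old arrays. Choroid plexus markers had a median of -0.082 over 14 genes, and only 2 of their intervals lay within 1.5-fold. Immediate early genes (19 measured) had a median of 0.13, with Klf2 at 0.22. Insulin and growth factor genes (20 measured) had a median of -0.0047, with Irs2, an adaptor of the insulin receptor, at -0.91 (adjusted p = 0.761, SD 1.08 in CIAS -/- old).

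**Figure D3:**
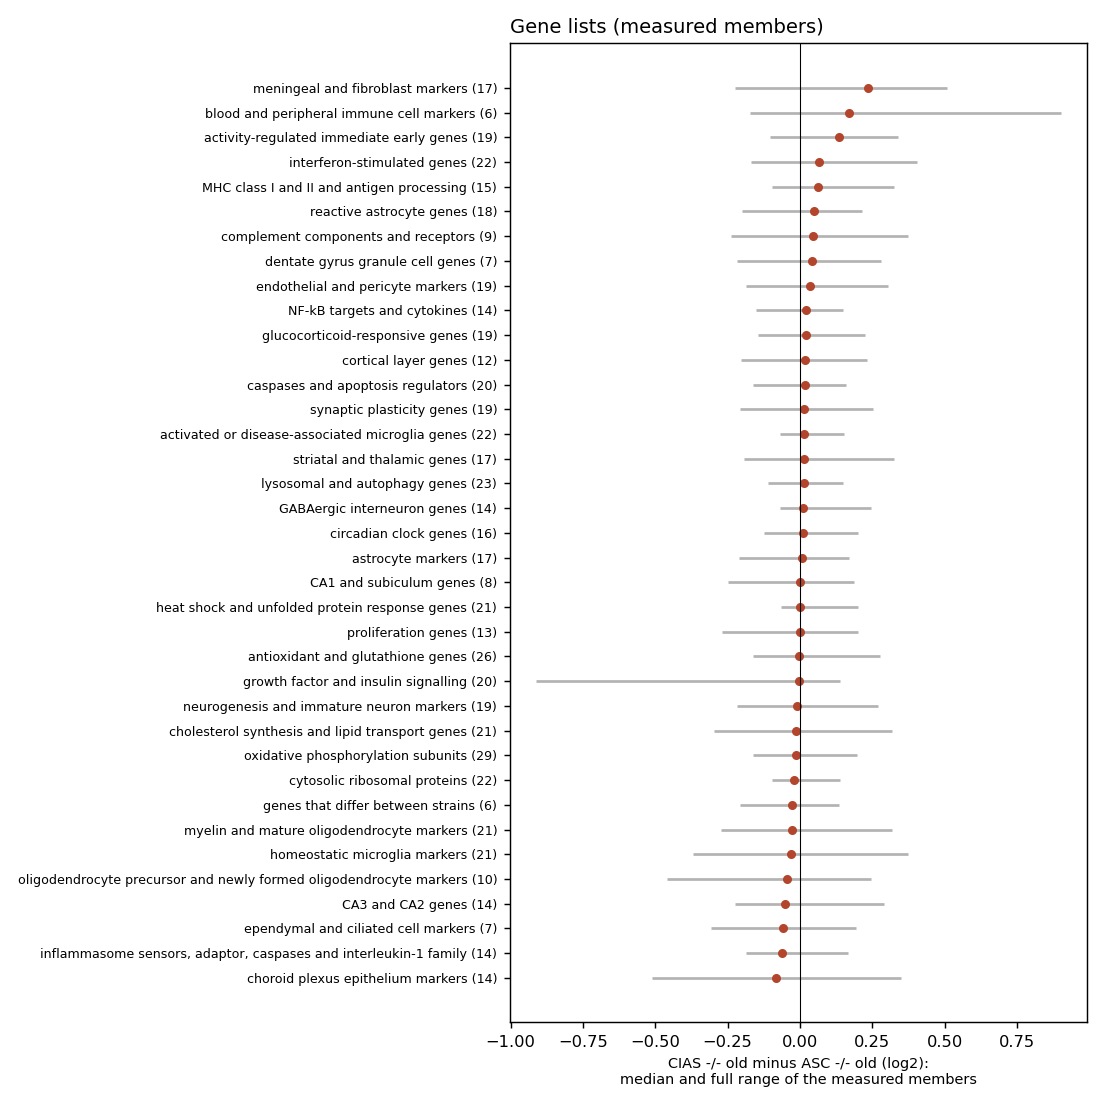
Median (point) and full range (line) of the log2 difference, CIAS -/- old minus ASC -/- old, over the measured members of each of the 37 gene lists, with the number measured in brackets. Medians run from -0.082 for choroid plexus markers to 0.23 for meningeal and fibroblast markers. No member of a list passed the test, against 0.0743% of all features.

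Genes near the targeted loci were read in the gene order of RefSeq on GRCm38.p6, since each line is labelled a knockout of the gene at one of these loci. Cox6a2 is the first tested gene on one side of Pycard, with 4 coding genes between them. Among the 80 tested genes nearest to Pycard, 40 on each side, it was the 1 that passed, and 13 had an unadjusted p under 0.05. Among the 80 nearest to Nlrp3, 0 passed in limma and 8 had an unadjusted p under 0.05. Over all features the shares were 0.0743% and 6.36%. Gdpd3 lies on the other side of Pycard, at the 42nd tested gene with 67 coding genes between them, just outside that window, a position looked up after its value was seen. Both genes thus lie on the chromosome of Pycard, which carried 777 tested genes and 2 of the 8 features that passed. ILMN_1227722 and ILMN_2693246, among those 8, could not be placed on a chromosome. The chromosome of Nlrp3 carried 838 tested genes, of which 0 passed.

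Other genes close to Pycard had differences that did not pass. Bag3, a co-chaperone of protein quality control, averaged 9.13 ± 0.146 in CIAS -/- old and 9.47 ± 0.109 in ASC -/- old, and the groups did not overlap (difference -0.34, adjusted p = 0.277). With the choroid plexus level as a covariate, a setting chosen after seeing the data, Bag3 passed (adjusted p = 0.0323). Its neighbour Inpp5f, an inositol phosphatase gene, had a difference of -0.28 and Rusf1 one of 0.26. Near Nlrp3 the differences with the smallest p were those of B9d1, a ciliary transition zone gene (-0.17), Slc36a2, an amino acid transporter gene (-0.25), and Mrpl55, a mitochondrial ribosomal protein gene (-0.19).

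**Figure D4:**
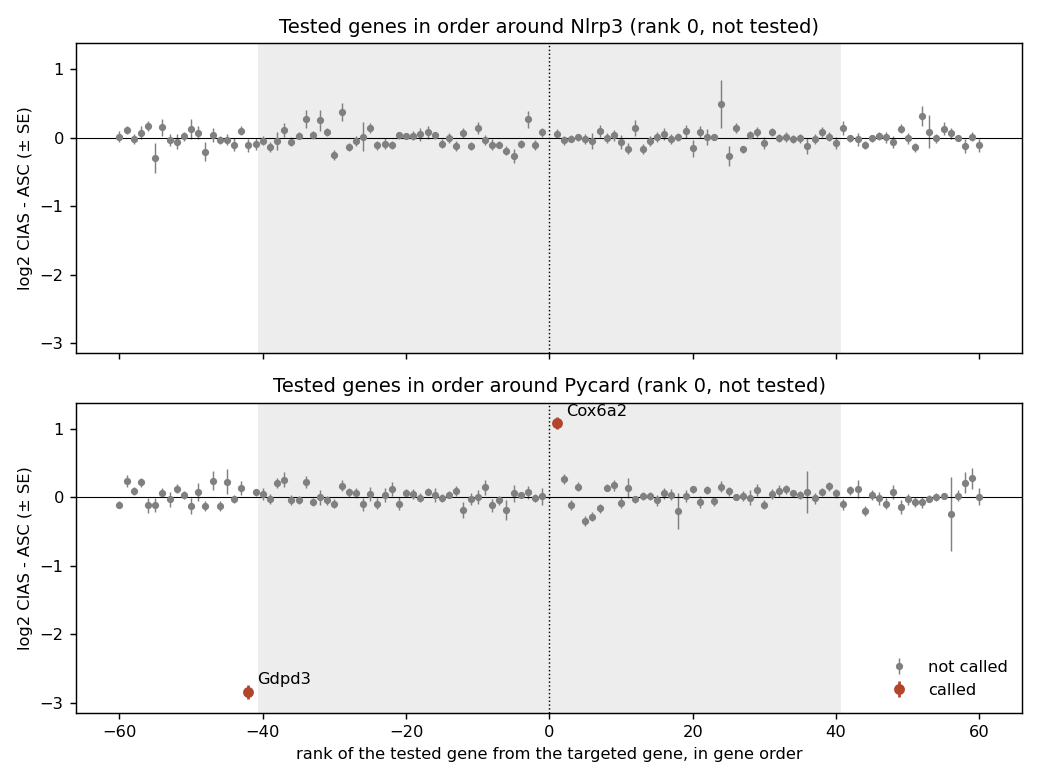
Log2 difference (CIAS -/- old minus ASC -/- old, with its SE) of the tested genes in gene order around Nlrp3 (top) and Pycard (bottom), with the 40 nearest on each side shaded and genes that passed coloured. Cox6a2, at 1.08, stands next to Pycard and Gdpd3, at -2.84, just outside the shaded window, while no gene around Nlrp3 passed.

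In the young mice, arrays not used above, the same contrast called 0 of 11178 features (0%) in the limma fit of all 7 groups, and 375 (3.35%) had an unadjusted p under 0.05. In this fit the SE for Gdpd3 was 0.526 in the young contrast and 0.372 in the old one. In that fit the old contrast called 5 features (0.0447%). The difference of the contrast between ages called 0 features (0%), and 453 (4.05%) had an unadjusted p under 0.05. For Gdpd3 the old contrast was -2.82 and the young one -0.53 (adjusted p = 1.00), and the difference between ages was -2.29 (adjusted p = 0.995). For Cox6a2 the old contrast was 1.08 and the young one -0.31. For Khdrbs3 they were 1.02 and 0.55, for Erdr1 -2.32 and -1.61, and for Grm8 -0.56 and -0.14. The spread within the young groups differed by gene: the SD of Gdpd3 was 1.27 in CIAS -/- young and 1.30 in ASC -/- young, and that of Grm8 0.146 and 0.163.

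Gdpd3 was uneven from array to array in the young groups. It stood at 5.47, 5.10 and 7.46 in CIAS -/- young replicates 1, 2 and 4, and at 5.10, 6.90 and 7.63 in ASC -/- young replicates 1, 2 and 4 (log2 signal, all 32 arrays normalized together). It lay between 4.84 and 5.30 in CASP11 -/- young and between 4.98 and 5.43 in wild type old. In wild type young it was 7.51 on replicate 3 and 4.99, 5.16 and 4.87 on the other 3 arrays. Levels of 6.90 or more were found on all 6 ASC -/- old arrays, on 4 arrays of the CIAS -/-, ASC -/- and wild type young groups, and on no CIAS -/- old, wild type old or CASP11 -/- young array.

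Cox6a2 was low on 2 of those young arrays. It stood at 8.00, 8.19 and 7.01 in CIAS -/- young replicates 1, 2 and 4, and at 8.24, 8.00 and 7.89 in ASC -/- young replicates 1, 2 and 4. In wild type young it was 8.44, 8.85, 6.99 and 7.88 on replicates 1 to 4. The arrays labelled CIAS -/- young replicate 4 and wild type young replicate 3 therefore joined high Gdpd3 with Cox6a2 below every ASC -/- old array (7.12 to 7.46), whereas all 3 ASC -/- young arrays had Cox6a2 above every ASC -/- old array. ASC -/- young replicate 1 had Gdpd3 at 5.10, within the range of the CIAS -/- old arrays (5.00 to 5.38). The young contrasts rest on the labels of the young arrays, which the Nlrp3 and Pycard probes could not check. The identity of these samples, ASC -/- young replicate 1 among them, is therefore in doubt and was not tested. With any 1 young CIAS -/- or ASC -/- array left out, limma still called 0 features in the young contrast. In CASP11 -/- young Cox6a2 lay between 7.93 and 8.35 and in wild type old between 8.14 and 8.86.

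Khdrbs3, Erdr1 and Grm8 set the CIAS -/- old arrays apart from most of the study. Khdrbs3 lay between 7.72 and 7.85 in CASP11 -/- young, between 6.77 and 7.88 in wild type old and between 7.61 and 7.89 in wild type young, all below the 8.45 of the lowest CIAS -/- old array. It stood at 8.80, 8.62 and 8.00 in CIAS -/- young and at 8.42, 7.91 and 7.44 in ASC -/- young replicates 1, 2 and 4. Erdr1 was near background, at 4.42, on CIAS -/- young replicate 2 and wild type young replicate 4, and between 5.69 and 8.90 on all other arrays outside CIAS -/- old.

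Grm8 lay between 6.25 and 6.81 on every array outside CIAS -/- old and between 5.88 and 6.14 on the CIAS -/- old arrays. Tmem254a lay between 7.73 and 8.48 in CIAS -/- old, between 7.08 and 7.45 in ASC -/- old, between 7.96 and 8.49 in CIAS -/- young, between 8.15 and 8.67 in ASC -/- young, between 9.07 and 9.22 in CASP11 -/- young and between 7.08 and 9.08 in wild type old. These levels in other groups are descriptions with no test.

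**Figure D5:**
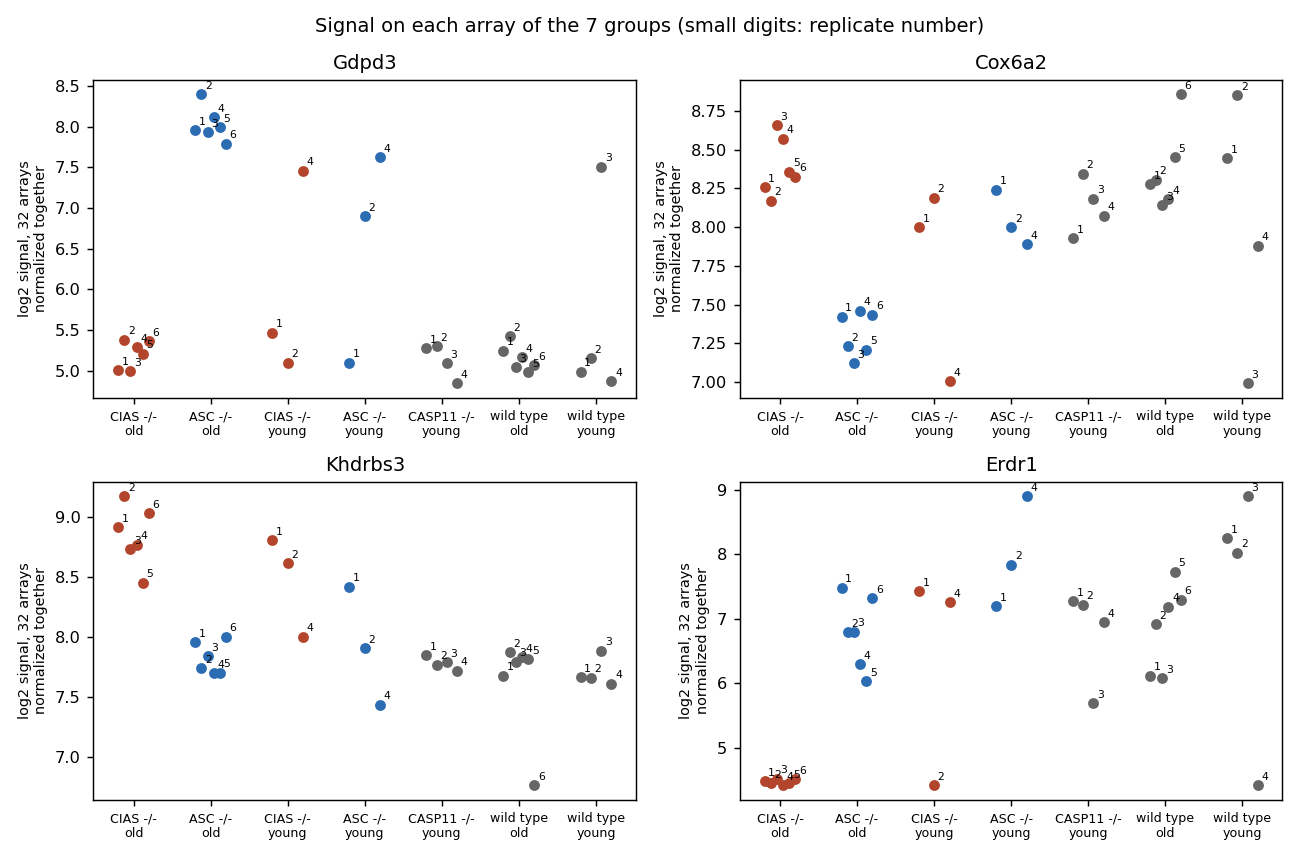
Log2 signal of Gdpd3, Cox6a2, Khdrbs3 and Erdr1 on each of the 32 arrays, normalized together, by group, with the replicate number beside each point. High Gdpd3 on single young arrays, at 7.46 in CIAS -/- young replicate 4 and 7.51 in wild type young replicate 3, goes with Cox6a2 at 7.01 and 6.99 on the same arrays. In ASC -/- young replicates 2 and 4, Gdpd3 at 6.90 and 7.63 goes with Cox6a2 at 8.00 and 7.89.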

How the data were processed

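Per the labels, total RNA of each hippocampal sample was made into biotin-labelled probe for a single Illumina bead array. The authors deposited a non-normalized table of probe intensity on a linear scale with a detection p-value beside each value, per the file headers. GenomeStudio is named in the submitters' processing notes, without a version. A second deposited table of normalized intensity, for which no source used here names a method, was an alternative after raising values under 16 to 16. The lowest deposited intensity on the 12 arrays was 27.2, so background had not been subtracted.

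The 12 arrays were processed alone in R 4.3.3 with limma 3.58.1: neqc inferred negative controls from the deposited detection p-values, corrected background by normexp, added 16, quantile-normalized and took log2. The deposited intensity thus became log2 signal. Of 25697 probes, 14120 had a detection p under 0.05 on at least 3 arrays. The probe with the highest mean stood for each gene, which gave 9950 named genes and 817 unnamed probes. Symbols came from the platform annotation, where 23978 probes had 1 symbol and 1719 none. Entrez numbers matched the RefSeq gene table for 9946 genes.

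Groups came from the titles. A limma fit of 2 group means gave 2-sided tests with Benjamini-Hochberg adjustment over all 10767 features. All 32 arrays, normalized together, were fitted with 7 group means for the young contrast and its difference from the old one. The code was tested on simulated data. Named genes were the targeted genes and their caspases, all features that passed, the 10 with the smallest p in each direction, up to 4 of each list by adjusted p, and neighbours that passed; any other named gene was picked with its values in view. The comparison, lists and tests were chosen with earlier results of these data known. Alternatives covered normalization, filter, offset, probes, spread, weights, block, age, and each array left out. The sources used here name no chip or scan, so no batch was examined. The number of arrays limits the precision.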

Additional observations from a re-analysis of the deposited data

Results flagged for a closer look

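Among 78 checks of a group's 6 arrays, 7 had an extreme array whose gap to the nearest other array exceeded 0.625 of the group's range, Dixon's 95% critical value. Chance gives about 1 such value in 20 groups. CIAS -/- old replicate 1 was low in Ttr, the main transcript of choroid plexus, at 9.62 (others 14.0 to 14.4), in the mean of the choroid plexus list, at 6.32 (others 7.87 to 8.78), and in the mean of the meningeal list, at 7.04 (others 7.94 to 8.25). CIAS -/- old replicate 3 was high in the mean of the blood and immune list, at 7.95 (others 6.57 to 6.96), and CIAS -/- old replicate 5 in Xist, at 7.76 (others 4.89 to 5.21). ASC -/- old replicate 5 was high in Tmem254a, at 7.45 (others 7.09 to 7.20), and ASC -/- old replicate 3 low in Casp1, at 7.55 (others 8.23 to 8.46). The 6 named genes that passed did so without each of these arrays.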

How the results depend on the processing

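The main count was 8 features, 3 higher and 5 lower in CIAS -/- old. The fit of all 7 groups gave 5 (3 lower), the fit of 4 knockout groups 3 lower, array weights 13 (9 lower), a floor of 1.5-fold 5 (2 lower), and age as a covariate 2 (0 higher, 2 lower) with 0 neighbours of the targeted genes. The choroid plexus covariate, chosen after seeing the data, gave 2 such neighbours. With each array left out the total ran from 6 to 9, with 3 to 4 higher and 3 to 6 lower (3 without CIAS -/- old replicate 4, CIAS -/- old replicate 5 or ASC -/- old replicate 2), 0 list members, 1 neighbour, and 0 for the young contrast and the age difference. The replicate number as a block gave 3 lower. No clear pairing by these numbers was seen: same-numbered deviations correlated at -0.22 to 0.41, over 0.1 for 1 of 6 pairs, and 1 array pair was best with its own number. Shared handling by number was not tested. Over 27 alternatives, leaving out each array among them, Gdpd3 had an adjusted p under 0.05 in 27, Cox6a2, Erdr1, Khdrbs3 and Grm8 in 26 each, Tmem254a in 25, ILMN_1227722 in 20 and ILMN_2693246 in 12, and none of these 8 differences changed sign. These counts include the floor of 1.5-fold, which repeats the p of the main fit. Under that floor Grm8, ILMN_1227722 and ILMN_2693246 lost their calls. The causes of these changes were not tested. Probes near background, such as Erdr1 in CIAS -/- old, give bounds rather than folds.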
